A study of Solanum lycopersicum with 6 samples.

Results

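The circadian clock genes described here are 10 of the 35821 genes in the count table of tomato leaf RNA-seq, chosen by identifier as *LHY* (Solyc10g005080), *LNK2* (Solyc01g068560), *PRR9* (Solyc10g005030), *PRR7-like* (Solyc04g049670), *PRR5* (Solyc03g081240), *TOC1* (Solyc06g069690), *TOC1-like* (Solyc03g115770), the *GIGANTEA* genes Solyc04g071990 and Solyc12g056650, and *EID1* (Solyc09g075080). Each identifier matched 1 row of the table once the version suffix was ignored, and all 10 passed the filter on low counts. The table holds identifiers only, so the gene names are those under which the identifiers were chosen.

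The study compared the cultivar M82 (WT, 3 libraries) with the *kyp* mutant in the M82 background (3 libraries), which is impaired in KRYPTONITE, a methyltransferase that places H3K9me2 on histone H3. Both genotypes were kept untreated in growth chambers at 24 °C with 16 h of light, and RNA came from the fourth leaf of 4-week-old plants. Only 1 *kyp* line was used, its allele is not described in the sources used here, and no identifier was paired with *KYP*, so its own counts were not checked. The time of day at which leaves were harvested is not given in those sources.

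The plant clock is a loop of transcription factors that repress each other in turn over the day. In *Arabidopsis thaliana*, where the order is best known, LHY accumulates at dawn and represses evening genes, the pseudo-response regulators PRR9, PRR7 and PRR5 follow one another through the day and repress *LHY*, and GIGANTEA and TOC1 act from the afternoon into the evening. In tomato the clock is known for its part in domestication, since cultivated plants carry altered alleles of *EID1* and *LNK2* that slow the rhythm. Both genotypes here are of the cultivar M82, and its alleles of *EID1* and *LNK2* were not examined. Because transcripts of these genes rise and fall every day, a single harvest reads each gene at 1 point of its cycle.

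Of the 10 clock genes, 3 were higher in *kyp* than in WT, 5 were lower, and 2 did not pass the threshold, an adjusted p under 0.05. *LHY*, *PRR9* and *LNK2* rose, by 4.43-fold, 4.16-fold and 2.12-fold. *TOC1-like* and *PRR5* were 4.92-fold and 2.08-fold lower, and both *GIGANTEA* genes and *PRR7-like* were lower by smaller amounts. Over all 20154 genes tested, 14.8% were called higher and 10.2% lower, and 24.9% were called in either direction. The 8 clock genes past the threshold were also those whose 3 *kyp* libraries all lay on 1 side of the 3 WT libraries, against 42.4% of all tested genes (21.9% higher and 20.5% lower). The median size of the log2 fold change, sign ignored, was 0.79 over the clock genes and 0.26 over all tested genes. Because the clock genes were chosen with earlier results of these data known, these contrasts with all tested genes are a description and not a test. Calls came from edgeR's quasi-likelihood test on the deposited counts, with Benjamini-Hochberg adjustment over all tested genes, and the error given beside a log2 fold change is the standard error (SE) implied by that test. Levels are CPM, counts scaled to the library total, with the total corrected by TMM, a factor that equalizes libraries over the tested genes. In whole leaves, fewer cells that express a gene and less RNA per cell cannot be told apart.

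**Figure D1:**
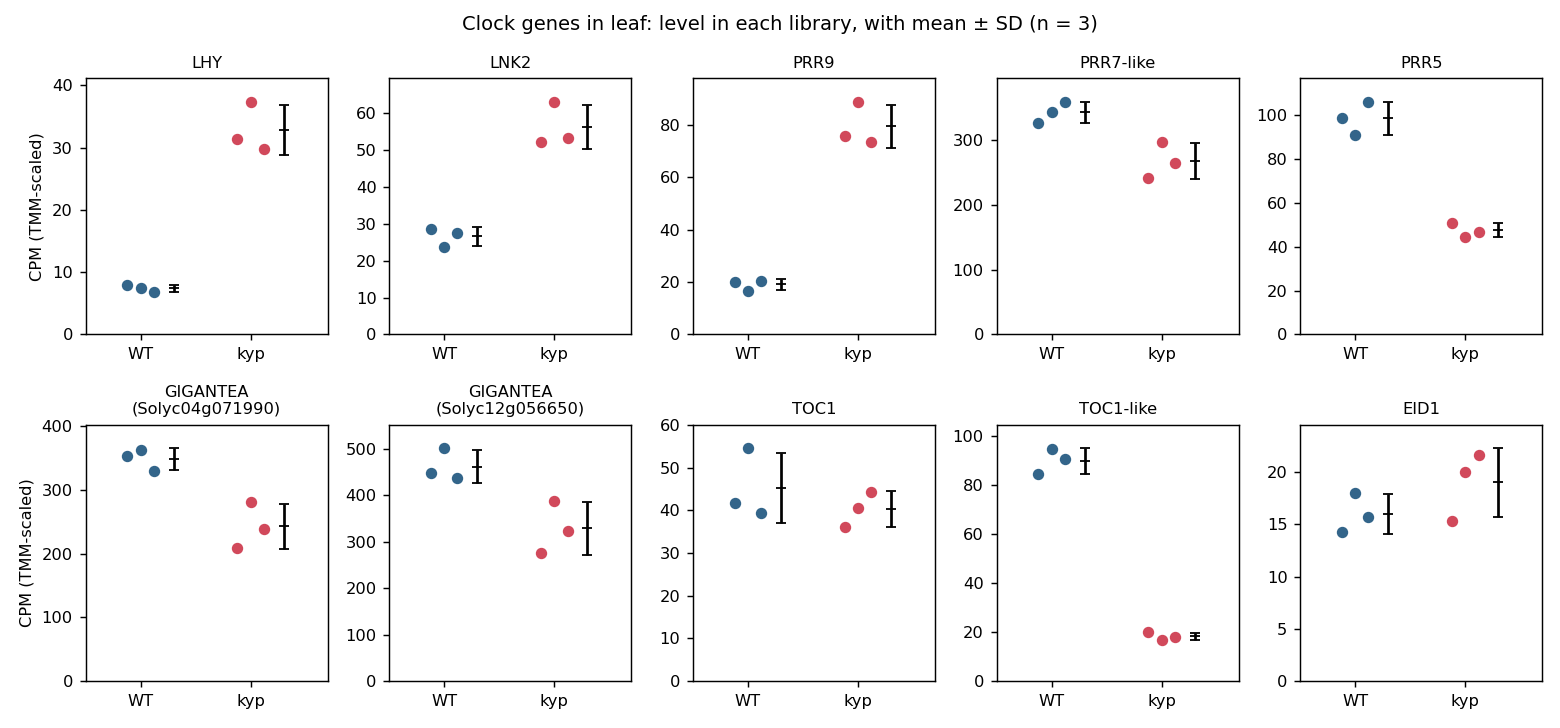
Level of each clock gene in CPM (TMM-scaled) on an axis from 0, with 1 point per library and the mean ± SD of 3 libraries beside the points, for WT (blue) and *kyp* (red). WT and *kyp* points do not overlap in 8 panels and overlap for *TOC1* and *EID1*.

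*LHY* encodes a MYB-related repressor that stands at the dawn end of the loop in *Arabidopsis*. It was at 7.89, 7.49 and 6.82 CPM in the WT libraries and at 31.4, 37.4 and 29.7 CPM in the *kyp* libraries. All 3 *kyp* values lay above all 3 WT values, with a wide gap. The mean went from 7.40 ± 0.542 CPM (SD, n = 3) in WT to 32.8 ± 4.03 CPM (SD, n = 3) in *kyp*, a log2 fold change of 2.15 ± 0.14 (SE) with an adjusted p of 3.02e-05. Only 4.53% of all tested genes had a larger change in either direction.

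*LNK2* encodes a coactivator that in *Arabidopsis* works with morning-phased MYB factors of the LHY family. It was at 28.6, 23.6 and 27.5 CPM in WT and at 52.1, 63.0 and 53.2 CPM in *kyp*. The lowest *kyp* library was well above the highest WT library. The log2 fold change was 1.08 ± 0.12 (SE), with an adjusted p of 0.000346. The counts do not show from which part of the gene the reads came.

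Among the pseudo-response regulators, the earliest of the series and the later ones changed in opposite directions. *PRR9*, the first to appear after dawn in *Arabidopsis*, was at 19.9, 16.7 and 20.6 CPM in WT and at 75.6, 88.7 and 73.5 CPM in *kyp*. Its libraries did not overlap, and the rise of 2.06 ± 0.12 (log2, SE; adjusted p = 2.12e-05) was close to that of *LHY*. *PRR5*, which in *Arabidopsis* peaks in the afternoon, was at 98.7, 91.1 and 106.0 CPM in WT and at 50.8, 44.5 and 46.9 CPM in *kyp*. These groups were also separate, with a log2 fold change of -1.06 ± 0.10 (SE) and an adjusted p of 0.000143.

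*PRR7-like*, named for the regulator that sits between PRR9 and PRR5 in *Arabidopsis*, was at 326, 343 and 359 CPM in WT and at 241, 297 and 265 CPM in *kyp*. All *kyp* libraries were lower, but the gap between the groups was small. The log2 fold change of -0.36 ± 0.10 (SE) had an adjusted p of 0.0364. The call held without *kyp* replicate 2 and was lost without each of the other 5 libraries, where the adjusted p ranged from 0.0728 without WT replicate 1 to 0.118 without *kyp* replicate 1, and was 0.0942 without WT replicate 2, 0.0897 without WT replicate 3 and 0.1001 without *kyp* replicate 3. Its direction was the same in all 6 of these fits.

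The *GIGANTEA* genes encode large proteins that, in *Arabidopsis*, link the clock to flowering time and to the stability of the F-box protein ZEITLUPE in the later part of the day. Solyc04g071990 was at 353, 363 and 329 CPM in WT and at 209, 281 and 238 CPM in *kyp*. Solyc12g056650 was at 448, 502 and 436 CPM in WT and at 275, 388 and 323 CPM in *kyp*. For both genes every *kyp* library was below every WT library, and the *kyp* libraries followed the same pattern, with replicate 1 lowest and replicate 2 highest. The log2 fold changes were -0.52 ± 0.12 (SE; adjusted p = 0.0141) and -0.49 ± 0.14 (SE; adjusted p = 0.0298). The Solyc04g071990 call was lost without WT replicate 2 (adjusted p = 0.0508) or *kyp* replicate 3 (0.0514), and the Solyc12g056650 call without WT replicate 1 (0.0691), WT replicate 2 (0.0999), *kyp* replicate 1 (0.0878) or *kyp* replicate 3 (0.0888).

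The pair named for TOC1, the evening repressor of *LHY* in *Arabidopsis*, gave unlike results. *TOC1-like* was at 84.5, 94.9 and 90.6 CPM in WT and at 19.9, 16.9 and 18.1 CPM in *kyp*. The groups were far apart and the spread within each was small. The mean fell from 90.0 ± 5.23 to 18.3 ± 1.47 CPM (SD, n = 3), a log2 fold change of -2.30 ± 0.10 (SE) with an adjusted p of 7.10e-06, and 0.471% of all tested genes had a lower value.

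*TOC1* itself was at 41.6, 54.6 and 39.3 CPM in WT and at 36.1, 40.6 and 44.4 CPM in *kyp*. The groups overlapped, and WT replicate 2 stood above the other WT libraries. The log2 difference was -0.16 ± 0.14 (SE), with a 95% interval from -0.49 to 0.16 and an adjusted p of 0.447. Without WT replicate 2 the difference was -0.00058, and the adjusted p stayed above the threshold in every fit that left out 1 library. An absence of change was not shown, but the interval leaves out a fall as large as that of *TOC1-like*.

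*EID1* encodes an F-box protein that acts in phytochrome A signalling in *Arabidopsis*. It was at 14.2, 18.0 and 15.8 CPM in WT and at 15.4, 20.02 and 21.7 CPM in *kyp*. The groups overlapped. The log2 difference was 0.25 ± 0.16 (SE), with a 95% interval from -0.11 to 0.62 and an adjusted p of 0.283.

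**Figure D2:**
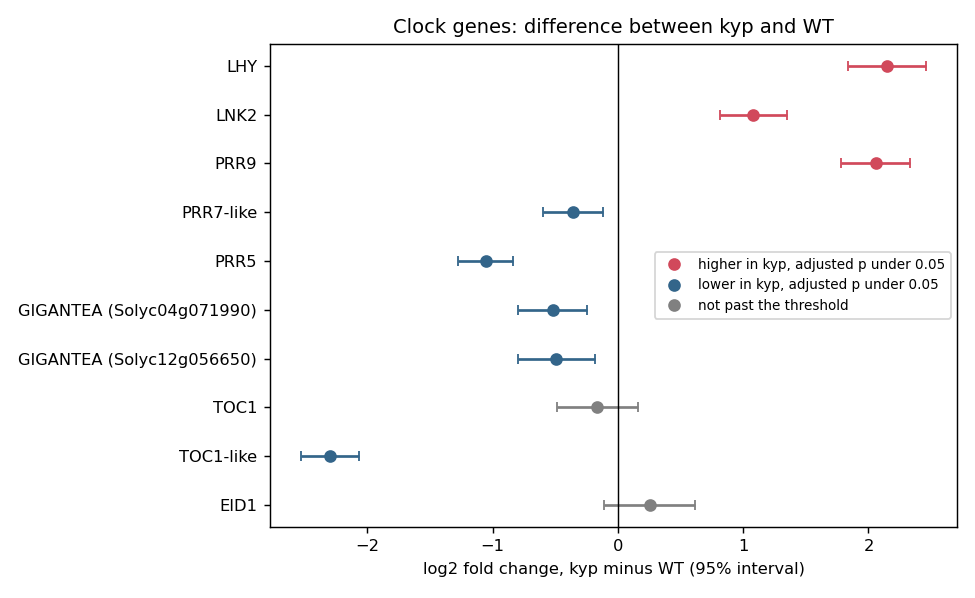
Log2 fold change of each clock gene, *kyp* minus WT, with its 95% interval from edgeR's quasi-likelihood fit, ordered from genes that peak early to genes that peak late in the *Arabidopsis* day, with *EID1* last. *LHY*, *LNK2* and *PRR9* lie between 1.08 and 2.15, and every later gene from *PRR7-like* to *TOC1-like* lies below 0, with *TOC1* not past the threshold.

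Read in the order of the *Arabidopsis* day, the sign of the difference changed once. *LHY*, *LNK2* and *PRR9*, the dawn and early-day genes, were the 3 that were higher in *kyp*. From *PRR7-like* onward the 6 later genes had negative log2 differences, 5 of them past the threshold. The sign of *TOC1* is not settled, since its 95% interval ran from -0.49 to 0.16. The calls of *PRR7-like* and of the *GIGANTEA* genes were each lost in some fits that left out 1 library. The sizes did not follow the order, since *TOC1-like* (-2.30) and *PRR5* (-1.06) fell more than the *GIGANTEA* genes between them.

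Libraries that were harvested at different times of day would differ in these genes, so the balance of morning and evening genes was set out for each library. The balance was the mean log2(CPM + 1) of *LHY* and *LNK2* minus that of the 2 *GIGANTEA* genes, *TOC1* and *TOC1-like*. It compares libraries and says nothing of which gene is more abundant, because gene lengths were not used. It was -3.26, -3.61 and -3.35 in WT and -0.98, -0.94 and -1.15 in *kyp*. Within a genotype the libraries lay within a narrow band, with SDs of 0.18 in WT and 0.11 in *kyp*, and the means were 2.38 apart. Thus no library of either genotype was near the other genotype. This gap follows from the differences of the member genes given above. Among the evening genes these were unequal, at -2.30 for *TOC1-like*, -0.52 and -0.49 for the *GIGANTEA* genes, and -0.16 for *TOC1*, which was not called. With *LHY* and *TOC1* alone, the means were 2.16 apart.

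Ratios of counts of clock gene pairs within a library do not depend on library size or scaling. They restate the counts of the genes described above and are not separate evidence. Other than the *LHY* to *TOC1* pair, these pairs were picked after their values were seen and are given as a description. The ratio of *LHY* to *TOC1* counts was 0.189, 0.137 and 0.173 in WT and 0.871, 0.921 and 0.670 in *kyp*. The ratio of *PRR9* to *PRR5* was 0.202, 0.184 and 0.194 in WT and 1.49, 1.99 and 1.57 in *kyp*, a mean 8.71-fold higher. In each *kyp* library both ratios were higher than in any WT library.

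The ratio of *TOC1-like* to *TOC1* was 2.03, 1.74 and 2.30 in WT and 0.551, 0.417 and 0.408 in *kyp*. That of *LHY* to *PRR9* overlapped between the genotypes, at 0.391 ± 0.0580 in WT and 0.414 ± 0.00862 in *kyp* (SD, n = 3). That of the *GIGANTEA* genes, Solyc12g056650 to Solyc04g071990, was between 1.27 and 1.38 in all 6 libraries. The genotypes thus overlapped in the ratios of *LHY* to *PRR9* and of the *GIGANTEA* genes, and were apart in that of the TOC1 pair.

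**Figure D3:**
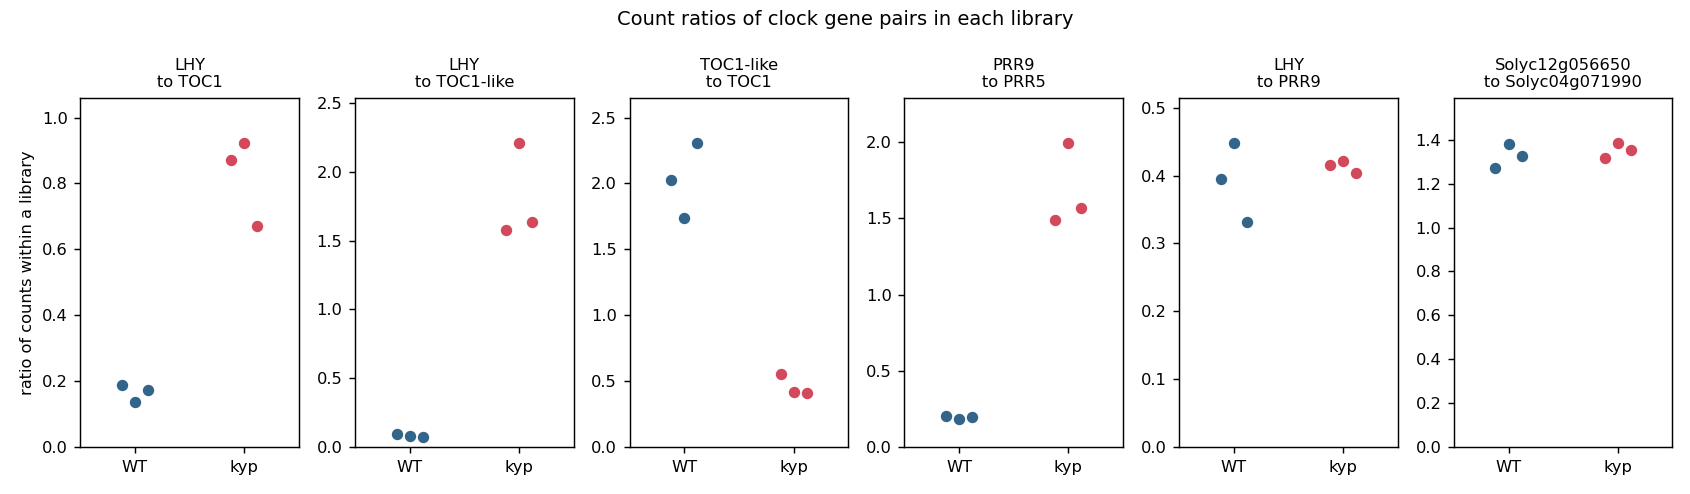
Ratio of the counts of 2 clock genes within each library (1 point per library, axes from 0) for WT (blue) and *kyp* (red). The *PRR9* to *PRR5* ratio is at most 0.202 in WT and at least 1.49 in *kyp*, while the *LHY* to *PRR9* and *GIGANTEA* ratios overlap.

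Genes that work beside the clock were read from a list of 10 identifiers taken to be evening complex, FKF1/ZTL family and CDF repressor genes. These identifiers were assigned from general tomato nomenclature and are not annotated in the files used here, so they are given by identifier. All 10 were tested, 2 were higher in *kyp*, 3 were lower and 5 were not called, where 14.8% of all tested genes were called higher and 10.2% lower. The median log2 fold change of the list was -0.05, against -0.0070 over all tested genes. The largest change on it was a fall of Solyc06g005680, which had 112, 171 and 131 counts in WT and 10, 7 and 10 counts in *kyp*. At 14.0 ± 1.51 against 1.06 ± 0.324 CPM (SD, n = 3), it was 13.4-fold lower, a larger fall than that of any of the 10 clock genes.

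The other called genes of this list changed less. Solyc08g065870 was at 62.5 ± 1.06 CPM in WT and 34.0 ± 3.33 CPM in *kyp* (SD, n = 3; adjusted p = 0.000392), and Solyc01g005300 at 239 ± 17.9 and 136 ± 19.4 CPM (adjusted p = 0.00164). The genes that rose were Solyc06g069760, from 61.3 ± 2.48 to 97.0 ± 5.79 CPM (adjusted p = 0.000845), and Solyc03g115940, from 151.8 ± 19.1 to 210.6 ± 25.0 CPM (adjusted p = 0.0241). The number of higher genes was 1 without WT replicate 1 and without WT replicate 2.

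Light sets the phase of the clock through photoreceptors and the factors below them. A list of 19 identifiers, taken in the same way to be phytochromes, cryptochromes, PIF factors and other light signalling genes, held 5 that were higher in *kyp*, 4 that were lower and 10 that were not called, beside 14.8% higher and 10.2% lower over all tested genes. Their median log2 fold change was 0.02, and that of all tested genes -0.0070. The largest rise was that of Solyc05g053410, at 13.3, 10.8 and 11.6 CPM in WT and 51.0, 62.4 and 54.8 CPM in *kyp*, a log2 fold change of 2.24 ± 0.13 (SE) with an adjusted p of 1.67e-05. The largest fall was that of Solyc06g008030, at 96.4, 106.4 and 83.7 CPM in WT and 26.3, 34.3 and 28.3 CPM in *kyp*, or -1.68 ± 0.13 (SE; adjusted p = 7.57e-05). Both were separated between genotypes without overlap.

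Of the other called genes on the light list, Solyc08g061130 (log2 fold change 1.50), Solyc01g102300 (1.08), Solyc09g063010 (0.45) and Solyc08g074270 (0.42) rose. Solyc06g069600 (-1.39), Solyc03g115540 (-1.09) and Solyc09g090100 (-0.45) fell. The number of higher genes was 3 without WT replicate 1 and without WT replicate 2.

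**Figure D4:**
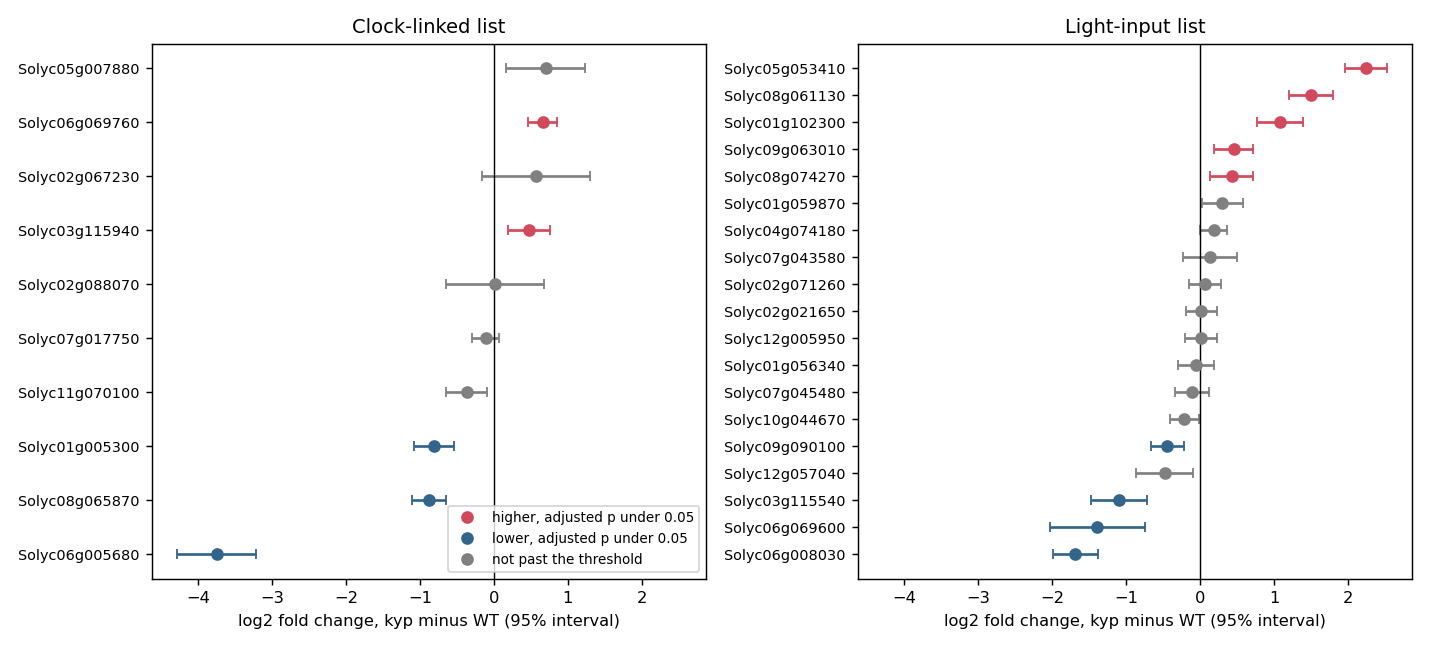
Log2 fold change, *kyp* minus WT, with its 95% interval for the 10 identifiers of the clock-linked list (left) and the 19 of the light-input list (right), coloured by whether the adjusted p was under 0.05. Values run from -3.74 (Solyc06g005680) to 2.24 (Solyc05g053410), and both lists hold called genes on each side of 0.

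The labelled tissue was checked against marker lists that were assigned in the same way. Of 12 leaf marker identifiers (Rubisco small subunit and chlorophyll a/b-binding protein genes), 10 were listed, and their summed level was 11402 to 17208 CPM in WT and 16073 to 19793 CPM in *kyp*. Of these 10, 4 were higher in *kyp* and none was lower, against 14.8% and 10.2% of all tested genes. The 4 were neighbouring copies on chromosome 2 (Solyc02g070940, Solyc02g070950, Solyc02g070970 and Solyc02g070980), with log2 fold changes of 0.67, 0.72, 0.69 and 0.83, and reads of near-identical copies may be split between them. Of 9 flower, fruit and meristem identifiers, 4 had at most 3 counts in every library, 1 of them 0 throughout, and the summed level was 31.7 to 35.2 CPM in WT and 28.4 to 35.2 CPM in *kyp*. Only 3 of these 9 were tested. Solyc02g084630, the highest of them, was at 20.1 CPM in WT and 16.9 CPM in *kyp*, and was not called. Solyc02g081120, at 6.83 and 5.34 CPM, was not called either. Solyc09g089580 was higher in *kyp* (9.67 against 6.39 CPM, adjusted p = 0.0293). The part of these genes in the clock gene differences was not tested. A difference between the genotypes in the clock and a difference in the time of harvest cannot be told apart in these 6 libraries.

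*LHY* and *PRR9*, the pair with the largest rises, are also neighbours on chromosome 10, where the table lists 3 genes between them. Of these, Solyc10g005060.4 was higher in *kyp* (log2 fold change 0.86 ± 0.12, SE; adjusted p = 0.00127), while Solyc10g005040.4 (-0.10) and Solyc10g005050.3 (-0.09) were not called. Around all 10 clock genes, 26 of 89 distinct tested genes listed within 5 tested genes on the same chromosome were called, or 29.2%, against 24.9% of all tested genes. None of the 10 around *LNK2* was called, and 5 of 10 were called around *PRR5* and around *TOC1*, each with 3 higher and 2 lower. Around the *GIGANTEA* gene Solyc04g071990, 3 of 10 were called, all lower. They were Solyc04g071960.3 (-2.74), Solyc04g071970.4 (-0.96) and Solyc04g071980.3 (-0.76), listed directly before it.

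**Figure D5:**
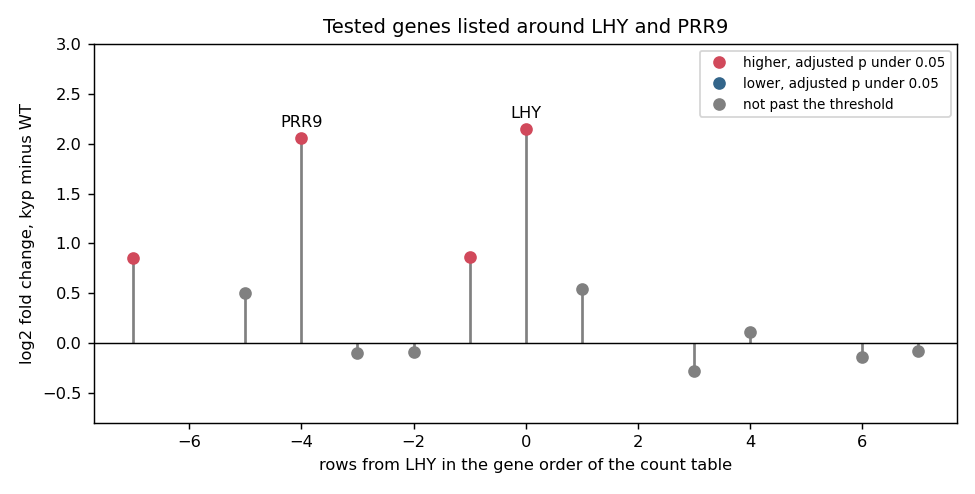
Log2 fold change, *kyp* minus WT, of the tested chromosome 10 genes listed around *LHY* and *PRR9*, placed by the number of table rows from *LHY*. *LHY* and *PRR9* reach 2.15 and 2.06, and no gene listed beside them passes 0.86.

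The genes closest in pattern to *LHY* were taken as those with the highest Pearson r of log2(CPM + 1) over the 6 libraries. They were Solyc01g090790.4, Solyc12g038220.3 and Solyc10g050777.1, with an r of 0.9995, 0.9992 and 0.9986. Such values are common here, since 1212 tested genes had an r above 0.95 with *LHY*, and the r mostly reads the gap between the genotypes. Solyc01g090790.4 was at 48.1, 44.5 and 43.6 CPM in WT and at 122.1, 135.2 and 114.0 CPM in *kyp*. Among the clock genes, *PRR9* (0.993) was the most like *LHY*, and *TOC1-like* (-0.996) the most opposed. *TOC1*, which shows no such gap, had 18 tested genes above 0.95, led by Solyc10g084140.2 (0.984), Solyc01g005790.1 (0.984) and Solyc02g150145.1 (0.982), and the highest r of another clock gene with it was 0.63, for Solyc12g056650.

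The lowest count of a clock gene in any library was 61, that of *LHY* in WT replicate 3. The part of sequencing depth in the spread of *LHY* was not tested. The libraries held 8925379 to 11012421 counts in WT and 7283885 to 10091231 in *kyp*, and libraries of a genotype differed by more than sampling noise (chi-square per degree of freedom from 4.56 to 11.7). The coefficient of variation of the 10 clock genes was 4.74% to 18.2% in WT, with a median of 7.56%, and 6.71% to 17.3% in *kyp*, with a median of 10.6%. *TOC1* had the widest spread in WT, and Solyc12g056650 and *EID1*, both at 17.3%, the widest in *kyp*.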

How the data were processed

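RNA-seq counts of 3 WT and 3 *kyp* leaf libraries were analysed. The authors deposited raw counts, the reads assigned to each gene, with no scaling. The study's methods describe trimming with Trimmomatic 0.38, mapping to the M82 genome with Bowtie2, and removal of PCR duplicates and of alignments with mapping quality under 30. The submitters' processing notes instead list HISAT2 2.2.1, SAMtools 1.9, featureCounts and DESeq2. Which aligner made the table, the strand setting and the annotation release are not given in the sources used here, so overlapping genes on opposite strands are uncertain.

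Genes kept by filterByExpr (minimum count 10, minimum total 15) were tested in edgeR 4.0.16 (R 4.3.3) with TMM, genotype as the only factor, and an adjusted p under 0.05 as the threshold. Fold changes come from that fit. Alternatives were DESeq2 1.42.0, limma-voom (limma 3.58.1), other scalings and filters, a replicate block and leaving out each library. The named genes were the 10 clock genes, called genes of the 2 lists, the genes between *LHY* and *PRR9*, and the 3 most like *LHY* and *TOC1* by r. The clock genes and lists were chosen with earlier results of these data known. The RefSeq gene table (SLM_r2.1) matched 0 of the 10 identifiers, so no sequences or positions are given. Figures were drawn with matplotlib 3.10.9.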

Additional observations from a re-analysis of the deposited data

How the results depend on the processing

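The 3 higher clock genes were called under all 7 alternatives and in all 6 fits that left out a library. The 5 lower ones were called under 6 alternatives, and leaving out each library in turn gave from 2 to 5, with *TOC1-like* and *PRR5* called in each. No clock gene past the threshold changed direction. Leave-one-out ranges were 3538 to 5431 for the 5028 genes changed in *kyp*, 3 to 5 and 4 to 5 for the light list (5 higher, 4 lower), 1 to 3 and 3 to 4 for the clock-linked list (2 higher, 3 lower), and 2.28 to 2.46 for the morning and evening balance of 2.38, which was 2.16 with *LHY* and *TOC1* alone. Library totals alone shifted the median log2 fold change of all genes from -0.0070 to -0.06.

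The sources used here do not say that same-numbered plants were grown or processed together, so the numbers were not taken as pairs. Same-numbered WT and *kyp* libraries had deviations correlated at -0.0799 to 0.216, and different-numbered ones at -0.322 to 0.209. These values cannot show whether samples were processed together. With the replicate block 4867 genes were called, and 3 clock genes higher and 4 lower, *PRR7-like* having an adjusted p of 0.0522. Which transcripts of a gene were counted, and strand, could not be examined from counts per gene.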
